A study of Drosophila melanogaster with 2 samples.

Results

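The pooled call list of an ADD1-GFP chromatin immunoprecipitation in Drosophila melanogaster embryos held 1647 calls in pericentric sequence outside annotated transposable elements, of 30000 calls in all. They are the calls whose summit lies at or beyond 22 Mb on chromosome arm 2L, 23 Mb on 3L or 22 Mb on X, or before 4.2 Mb on 3R, and not in an annotated insertion of a transposable element. These 4 stretches next to the centromeres are called blocks here, and the calls in them members. The blocks held 1901 calls before the 254 calls (13.4%) with a summit in a transposable element were set aside, against 0.754% of calls set aside that way on the rest of the same arms. Members fell into 440 on 2L, 821 on 3L, 261 on 3R and 125 on X. The rule reads position only.

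Pericentric heterochromatin is the compact, repeat-rich sequence flanking a centromere, marked by methylated lysine 9 of histone H3 and bound by HP1a. It also holds genes, many with very long introns filled with repeats, that are transcribed within this environment. ADD1 is known as a heterochromatin protein of flies, named for its likeness to the ADD domain of the mammalian remodeller ATRX.

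All material was from the fly strain ADD1-MiMIC-GFP, in which an artificial eGFP exon within an ADD1 intron yields a fusion protein expressed from the ADD1 locus. Whole embryos of mixed sex, 0 to 16 h old, were used, so each call averages over all embryonic cell types and over that span of development. The precipitation was done with an antibody against GFP according to the sample descriptions, while the antibody field gives CG8290, another name of ADD1. Sonicated fragments ranged from 200 to 800 bp. The single group held 2 biological replicates, numbered 1 and 3, and calls were made against a shared control. With no second condition, no difference between conditions can be given, and no p-value is printed.

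Each call carries a signal value given by the authors' peak caller, on a scale that depends on the library, and it is used here as a rank within a list of 30000. The authors' irreproducible discovery rate procedure, which compares ranks between replicates, left 4402 calls, named kept calls here. They were the 4402 pooled calls with the highest signal, so being kept and having a high rank are one measure and not separate evidence. Shares carry 95% exact Clopper-Pearson intervals that cover counting error only and treat neighbouring calls as independent. Overlap of intervals is stated as a description and does not show that shares are alike. Read depth is unknown.

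The windows around the strongest kept member of each block, and around the strongest others that hold a searched promoter motif, are printed as examples. Windows chosen for a motif do not show how often strong calls hold one. Each is the plus strand of the RefSeq Release 6 assembly (dm6 coordinates) within 100 bp of the summit, with annotated untranslated regions cut away. Capitals mark the motifs TCGATA, GGTCACAC or GGTATTT on either strand, except in the spok window, where they mark the longest stretch that occurs 2 times in the window, of 16 bases. The MED21 window (chr3L:25115947-25116108) lies upstream of a Mediator subunit gene read from the minus strand. The spok window (chr3R:3374229-3374429) is intergenic and 51519 bp from the nearest start. The CR46450 window (chr2L:23176070-23176270) lies at a long non-coding RNA. The Rab21 window (chrX:23013410-23013442) is the short piece left upstream of a gene for a small GTPase. The Nubpl (chr2L:22239720-22239915) and Clamp (chr2L:22169144-22169339) windows lie at genes for a complex I assembly factor and a zinc finger protein of dosage compensation.
MED21: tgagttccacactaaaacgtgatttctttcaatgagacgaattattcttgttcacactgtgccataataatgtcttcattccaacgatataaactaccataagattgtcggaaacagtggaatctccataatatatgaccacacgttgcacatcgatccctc
spok: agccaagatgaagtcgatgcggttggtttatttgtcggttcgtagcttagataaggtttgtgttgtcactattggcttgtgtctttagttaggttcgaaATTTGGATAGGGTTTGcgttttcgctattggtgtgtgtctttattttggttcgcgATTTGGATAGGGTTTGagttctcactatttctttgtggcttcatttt
CR46450: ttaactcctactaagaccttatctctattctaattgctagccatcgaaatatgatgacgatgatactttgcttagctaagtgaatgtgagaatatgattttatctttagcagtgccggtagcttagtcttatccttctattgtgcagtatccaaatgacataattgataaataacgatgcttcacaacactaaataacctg
Rab21: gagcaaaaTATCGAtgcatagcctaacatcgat
Nubpl: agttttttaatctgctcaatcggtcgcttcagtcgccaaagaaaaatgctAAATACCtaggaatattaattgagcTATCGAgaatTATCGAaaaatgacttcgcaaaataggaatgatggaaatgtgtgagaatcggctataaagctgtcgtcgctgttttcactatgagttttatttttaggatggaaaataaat
Clamp: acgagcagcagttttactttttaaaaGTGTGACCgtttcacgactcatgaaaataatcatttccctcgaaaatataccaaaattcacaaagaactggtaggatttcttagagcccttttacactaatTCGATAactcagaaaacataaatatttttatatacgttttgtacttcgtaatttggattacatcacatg

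Few members were kept. Of the 1647 members, 74 (4.49%, interval 3.54 to 5.61) were kept, against 14.7% of all pooled calls. Calls of the same 4 arms outside the blocks, also outside transposable elements, were kept in 3465 of 21325 cases (16.2%, interval 15.8 to 16.8). Chromosome 4, a largely heterochromatic small chromosome, had 62 kept of 885 calls (7.01%, interval 5.41 to 8.89). The intervals of the members and of the rest of the arms do not overlap. Those of the members and of chromosome 4 do, though the share of the members was the lower one. Members were weak calls as a set, with a median rank of 19133 (quartiles 12974 and 25038.5) against 14483 for the rest of the arms. The weakest 10000 calls of the pool held 774 members (47.0%).

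The kept share of members differed with the place of the summit. A summit within 500 bp of an annotated transcription start is called a promoter summit here, and 171 members (10.4%, interval 8.95 to 11.96) had one, against 32.9% of calls on the rest of the arms. Of these promoter members 47 (27.5%, interval 20.9 to 34.8) were kept, against 28.7% of all pooled promoter calls, 28.9% on the rest of the arms and 23.3% on chromosome 4. Outside promoters 27 of 1476 members (1.83%, interval 1.21 to 2.65) were kept, against 8.5% of all pooled calls outside promoters and 10.04% (interval 9.55 to 10.5) on the rest of the arms. At this width promoter members were thus kept at a share close to that of promoters elsewhere, and members outside promoters at a lower one, with intervals that do not overlap. The first comparison turned with the width, since promoter members were kept at 40.5% against 33.5% of all promoter calls within 200 bp, and at 17.7% against 24.1% within 1000 bp. Chromosome 4 had 25 of 726 calls outside promoters kept (3.44%, interval 2.24 to 5.04). This share was above that of the members, with intervals that overlap.

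Outside promoters, every class of place had few kept members. Exons held 187 members with 3 kept, introns 672 with 9 kept (1.34%), and intergenic sequence 617 with 15 kept (2.43%). On the rest of the arms the same classes had 6.68%, 10.5% and 10.6% kept. The promoter members also ranked higher, with a median rank of 10254 against 19826 for members outside promoters. On the rest of the arms these medians were 8783 and 16926.5.

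**Figure D1:**
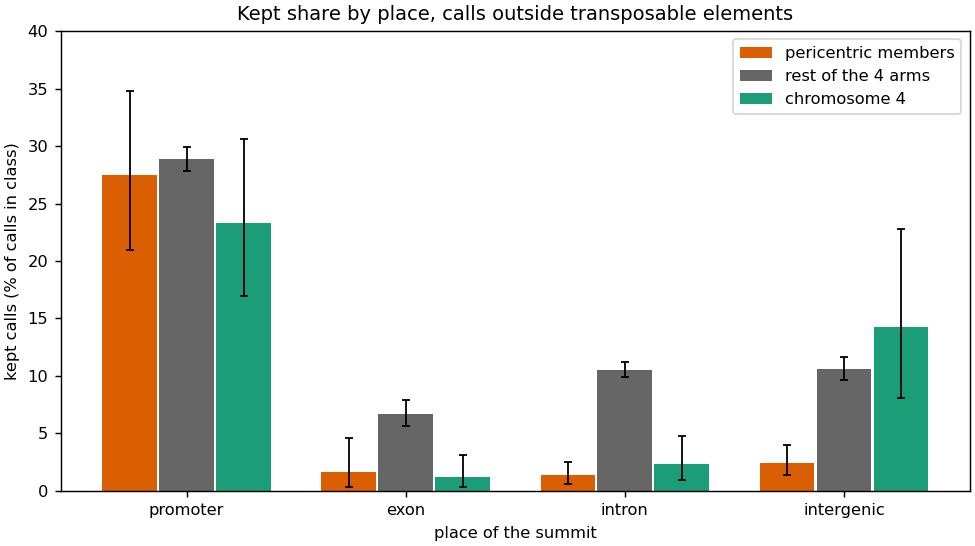
Share of calls kept (bars, percent of calls in the class) by place of the summit, for members, for the rest of the 4 arms and for chromosome 4, all outside transposable elements; lines are 95% exact intervals covering counting error only. The promoter bars of members (27.5%) and of the rest of the arms (28.9%) are of similar height, while the intron bars are at 1.34% and 10.5%.

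The member with the highest signal lay upstream of MED21 (3L, 25115880 to 25116108), which codes for a subunit of the Mediator complex that links transcription factors to RNA polymerase. Its pooled signal was 326 at rank 307, with signals of 163 in replicate 1 (rank 243) and 166 in replicate 3 (rank 375). Its summit was 62 bp from the start of MED21. The highest signal in the whole pool was 1451, so the strongest members were well below the strongest calls of the list, and 9 members were among the top 1000.

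Other strong promoter members on 3L lay at genes of unlike kinds. At scro, a gene for an NK2-type homeobox protein, the call (24723716 to 24724139) ranked 426 in the pool, 212 in replicate 1 and 917 in replicate 3. At Dbp80, which codes for a DEAD-box RNA helicase of messenger RNA export, the call ranked 634 in the pool, 618 in replicate 1 and 690 in replicate 3. The call at CG40228 ranked 401 and the one at CG40045 ranked 784, and replicate ranks were 375 and 415 at the former and 449 and 1491 at the latter. The lowest replicate rank among these 4 calls was 1491.

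On 2L the strongest kept members lay at lncRNA:CR46450 (23175958 to 23176381, rank 897), Nubpl (rank 1182), lt (rank 1188), Clamp (rank 1216) and in the 3′ untranslated region of tio (rank 1409). The light gene lt codes for the Vps41 subunit of a vesicle tethering complex and is a classic gene of 2L heterochromatin. Its call (22924497 to 22924920) ranked 1418 in replicate 1 and 1102 in replicate 3, and its summit was 86 bp from the start. The Nubpl call ranked 2250 in replicate 1 and 657 in replicate 3, the widest gap among these 5. The tio call, at a gene for a zinc finger protein related to teashirt, lay 5302 bp from a start and 24623 bp inside the boundary.

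On X the strongest kept member lay between Rab21 and Coa7, a gene for a cytochrome oxidase assembly factor, with its summit in the 5′ untranslated region of Rab21 (23013130 to 23013553). It ranked 829 in the pool, 940 in replicate 1 and 787 in replicate 3. The other 5 kept X members ranked between 3086 and 4301. They lay at the starts of asRNA:CR45009, ATbp, Usp2 (a ubiquitin protease) and S6kII (a protein kinase), and in the 3′ untranslated region of fog, which codes for a secreted ligand of gastrulation.

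On 3R the pair of members with the highest signal were intergenic. The first (3374248 to 3374471) had a signal of 310.3 and ranked 353 in the pool, 302 in replicate 1 and 431 in replicate 3. Its nearest start, 51519 bp away, was that of spok, a gene of ecdysone synthesis. Its window held a stretch of 16 bases occurring 2 times, and 28 of its 32-base words occurred more than once in the assembly. The second (3789568 to 3789991) ranked 885 and lay 39417 bp from the start of CG41128, in a window without repeated words. They were followed by promoter calls at CG41099 (rank 1573), Alg-2 (rank 1590) and Myo81F (rank 1595), a myosin gene.

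The 74 kept members formed 73 separate stretches, since a pair of calls at alpha-Cat overlapped. Summits of 48 lay outside genes, 14 in introns, 5 in 5′ and 3 in 3′ untranslated regions and 4 in other exons. The median distance to the nearest start was 58 bp for the 47 at promoters and 17547 bp for the other 27. Starts on both strands lay within 500 bp in 6 of them. Further promoter genes, named like S6kII after their values were seen, were those of the ribosomal proteins RpL10 (rank 1516), RpL5 (2049), RpL21 (2686) and RpL15 (2789). Mitochondrial genes among them included UQCR-11 of complex III (1687), mRpS5 of the mitochondrial ribosome (2732), the importer subunit Tim17b (2873) and ND-AGGG of complex I (3825). A kept call at rank 2518 also had a start of ND-MLRQ within 500 bp. Tim23 on 2L had a promoter call at rank 5974 that was not kept. Genes for the splicing factors Spf30 (1747) and Spf45 (2979) and for the HOPS subunit Vps11 (1940) also had a kept promoter call. The share kept among genes of each of these kinds was not counted. The strongest member that was not kept ranked 4492 and was intergenic, 13046 bp from the start of CG40228. The weakest kept one ranked 4340, at Parp1.

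**Figure D2:**
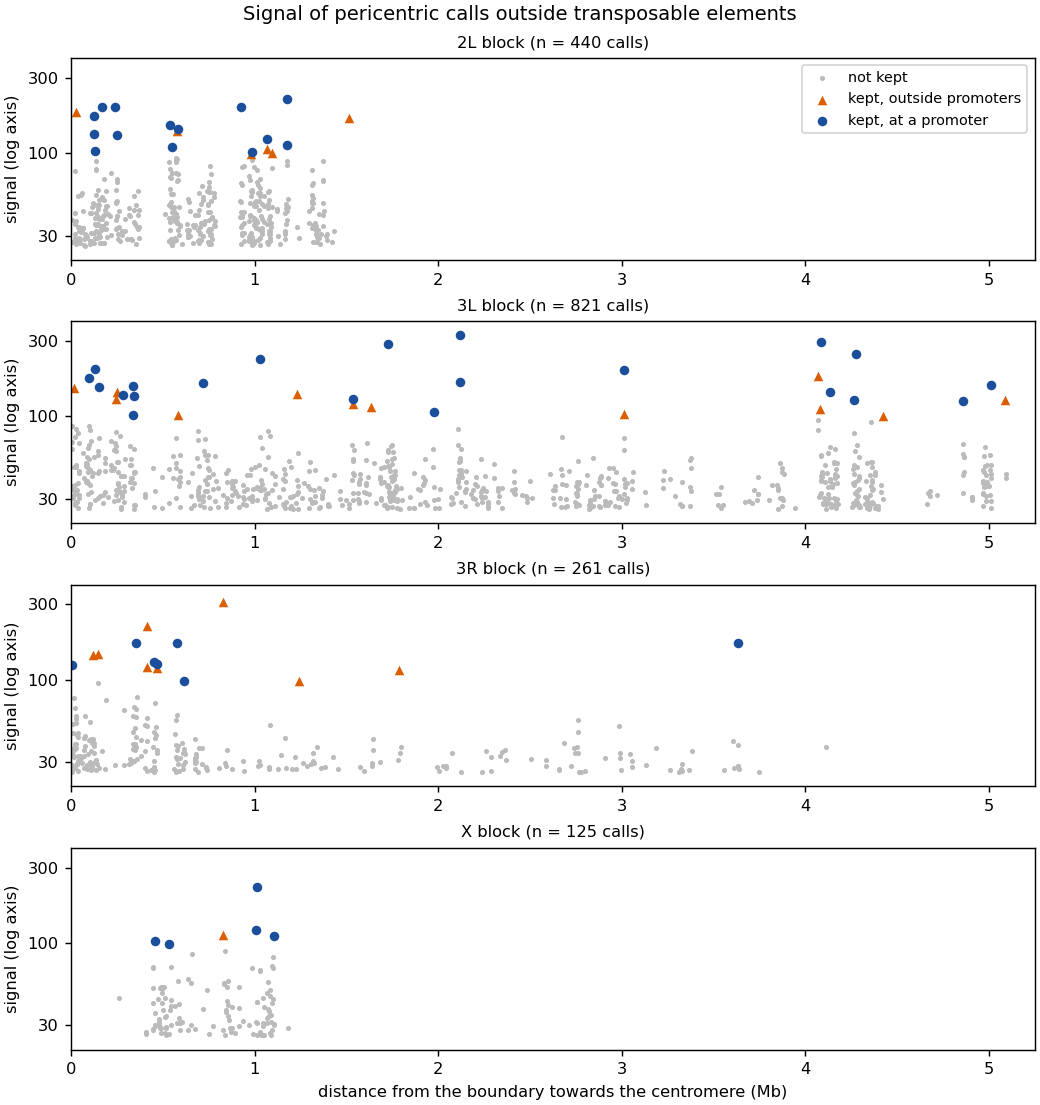
Signal of every member (log axis, the authors' scale for the pooled list) by distance from the boundary of its block in Mb, with kept members at promoters as circles and other kept members as triangles. Kept members lie 24623 to 1512866 bp inside the boundary on 2L and 15918 to 5091361 bp inside it on 3L. Between 2120620 and 4069327 bp on 3L the only kept ones are at l(3)80Fg. On 3R 13 of the 15 lie within 1.5 Mb of the boundary, where most of the 261 members of 3R also lie (119, 47 and 25 in steps of 0.5 Mb).

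Kept shares of the 4 blocks ran from 4.02% on 3L to 5.75% on 3R. The 2L block had 20 of 440 members kept (4.55%, interval 2.80 to 6.93) and the 3L block 33 of 821 (4.02%, interval 2.78 to 5.60). The 3R block had 15 of 261 kept (5.75%, interval 3.25 to 9.30) and the X block 6 of 125 (4.8%, interval 1.78 to 10.2). All 4 intervals overlap and all lie below the 14.7% of the whole pool. The X share rests on few calls, being 5.56% in the list of replicate 1 and 3.05% in that of replicate 3.

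The blocks differed in how their members were placed. Promoter summits made up 24.8% of X members (interval 17.5 to 33.3), 13.6% on 2L (10.6 to 17.2), 8.43% on 3R (5.36 to 12.5) and 7.06% on 3L (5.41 to 9.04). The X interval lies above the others, and the 2L interval lies above that of 3L. Kept shares among promoter members were 36.2% on 3L (21 of 58), 31.8% on 3R (7 of 22), 23.3% on 2L (14 of 60) and 16.1% on X (5 of 31), with overlapping intervals. Of the 15 kept members on 3R, 8 lay outside promoters, against 12 of 33 on 3L, 6 of 20 on 2L and 1 of 6 on X.

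Ranks were lowest on 3R. The median rank was 17638.5 on 2L, 18774 on X, 19051 on 3L and 22009 on 3R, and the share of members among the weakest 10000 calls was 40.7%, 48.0%, 46.5% and 58.6%. Median signals ran from 37.5 on 2L to 32.3 on 3R. The order of the block medians does not follow the order of the kept shares, in which 3R was the highest.

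Members were not evenly dense. The 2L block held 291 members per Mb, 3L 161, X 81.0 and 3R 62.1, against 225 on the rest of the arms. Much of the pericentric sequence is repeated, and positions starting a 32-base word that occurs once in the assembly made up 49.2% of the 2L block, 39.3% of 3L, 34.2% of 3R and 43.6% of X, against 94.7% of the rest. Per Mb of such unique sequence the densities were 591, 409, 182 and 186 in the order 2L, 3L, 3R, X, against 237. So 2L and 3L had more calls per unique Mb than the rest of the arms, and 3R and X fewer. These densities count all members, also those in windows holding repeated words. Windows made wholly of unique words were found for 67.0% of members on 2L, 59.4% on 3L, 54.0% on 3R and 88.8% on X. On the rest of the arms it was 98.1% of calls. Densities of calls with such windows alone were not computed, so the excess on 2L and 3L may be overstated. Kept members numbered 26.9, 16.5, 10.5 and 8.92 per unique Mb, each below the 38.6 of the rest of the arms. The longest stretches without a member were 140928 bp on 2L, 239932 bp on 3L, 361289 bp on 3R and 146855 bp on X, with 16.9%, 6.17%, 10.7% and 5.67% unique sequence. How reads from repeated sequence were treated is not given in the sources used here, and its part in these densities was not tested.

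The low kept share was also found where the sequence is unique. A window made wholly of unique words was found for 1035 members (62.8%), against 98.1% of calls on the rest of the arms. Of these 1035, 56 (5.41%, interval 4.11 to 6.97) were kept, against 16.4% of such calls elsewhere. Among them, 44 of 156 promoter members (28.2%) and 12 of 879 others (1.37%, interval 0.707 to 2.37) were kept, against 29.2% and 10.1% elsewhere. Of the 27 kept members outside promoters, 12 had a unique window, against 44 of the 47 at promoters. The most repeated window of a kept member, 82259 bp from the pseudogene CR41597 on 3L, had a median of 17 copies per word, and that of any member 43.5.

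Mean GC content was close in members and elsewhere, and lower in kept members at promoters than in members not kept. Windows of members had a mean GC content of 38.9% ± 7.23 (SD, n = 1647 calls), against 39.2% on the rest of the arms. Kept members had 35.8% ± 6.20 (SD, n = 74 calls) and members not kept 39.0% ± 7.25 (SD, n = 1573 calls). By place, kept members had 34.1% ± 4.71 (SD, n = 47 calls) at promoters and 38.7% ± 7.38 (SD, n = 27 calls) outside them. Promoter members not kept had 37.9% ± 8.27 (SD, n = 124 calls). Below 30% GC 7.74% of members were kept, and above 45% GC 1.25%. On the rest of the arms these shares were 21.1% and 10.3%, so the members' share was the lower one in both ranges.

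Inside the blocks the kept share was highest within 0.5 Mb of the boundary and lowest from 1.5 to 3 Mb, with intervals that overlap. Within 0.5 Mb 27 of 435 members (6.21%, interval 4.13 to 8.90) were kept. The share was 3.78% from 0.5 to 1 Mb and 4.09% from 1 to 1.5 Mb. It was 2.89% (9 of 311, interval 1.33 to 5.42) from 1.5 to 3 Mb and 4.96% (13 of 262) beyond 3 Mb. Within 1.5 Mb in all 52 of 1074 (4.84%, interval 3.64 to 6.30) were kept, and beyond it 22 of 573 (3.84%, interval 2.42 to 5.76). These intervals overlap. Members beyond 1.5 Mb were mostly on 3L, with 262 from 1.5 to 3 Mb and 240 beyond 3 Mb, against 48 and 22 on 3R. The share beyond 1.5 Mb is thus largely that of 3L. The last 0.5 Mb outside the boundaries had 42 of 493 calls kept (8.52%, interval 6.21 to 11.3), and its interval overlaps that of the first 0.5 Mb inside. On 2L the shares in steps of 0.5 Mb towards the boundary were 10%, 11.6% and 8.43% outside it, then 4.73%, 4.02% and 4.27% inside. On 3R they were 22.1%, 11.2% and 9.34% outside, then 7.56%, 6.38% and 4.00% inside. On 3L they were 27.8%, 16.4% and 6.67% outside, then 7.04%, 2.22% and 2.30% inside. On X they were 11.4%, 23.8% and 15.4% outside, then 3.85%, 3.39% and 7.5% inside. Only on 3R did the share fall at each of these steps.

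The promoter share and the density of members changed with distance. Promoter summits made up 16.8% of members within 0.5 Mb and 6.11% beyond 3 Mb. The 3R block had 238 members per Mb within 0.5 Mb, 94 in the next step, 50 in the step after it, 32 from 1.5 to 3 Mb and 18.3 beyond 3 Mb. On 3L the density was 284 per Mb within 0.5 Mb and 114 beyond 3 Mb, while unique sequence fell from 65.3% to 25.9%. Per unique Mb it was 435 and 440, with members in windows holding repeated words counted too, as in all densities given here. On 3R unique sequence fell from 48.6% to 24.6% and the density per unique Mb from 490 to 74.5. On 2L the density per unique Mb was 449, 807 and 597 in steps of 0.5 Mb inwards, and on X 264, 142 and 258.

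**Figure D3:**
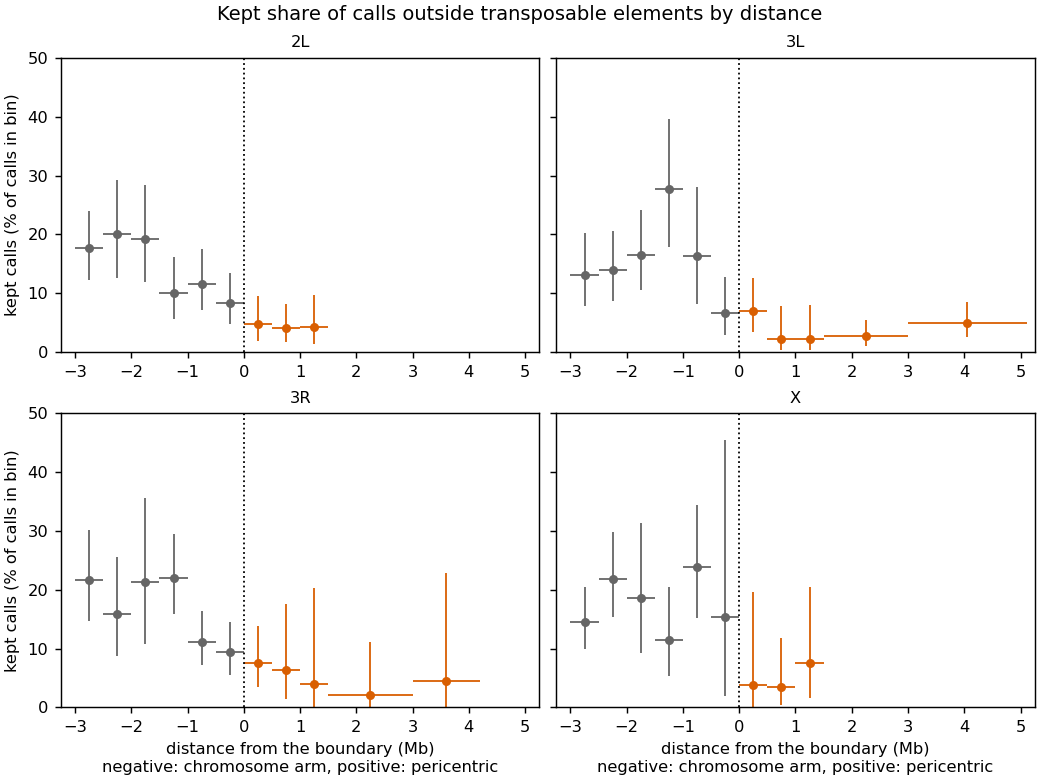
Share of calls kept (points, percent) by distance from the boundary in Mb on each arm, outside the block (negative) and inside it (positive); vertical lines are 95% exact intervals and horizontal lines the width of the bin. On 2L the shares inside the block are 4.02% to 4.73%, and those outside are 8.43% to 20%.

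Genes with a start in the blocks had kept calls at a share whose interval overlaps that of other genes, and at a higher share where the start lay in unique sequence. Of the 146 protein-coding genes there, 91 (62.3%, interval 53.9 to 70.2) had a pooled call within 500 bp of a start and 44 (30.1%, interval 22.8 to 38.3) a kept one, against 23.1% of all protein-coding genes of the 4 arms. On the rest of the arms 49.3% of 10867 genes had a call and 23.1% (interval 22.3 to 23.9) a kept one. Among genes whose start lay in unique sequence the intervals do not overlap, with a kept call at 42 of 114 (36.8%, interval 28 to 46.4) in the blocks and at 23.8% (interval 22.96 to 24.6) elsewhere. Of the genes with a call, 48.4% in the blocks and 46.8% elsewhere had a kept one. On chromosome 4, 35 of 80 genes (43.8%) had a kept call. Of the 109 other genes of the blocks, mostly non-coding, 10 (9.17%, interval 4.49 to 16.2) had a kept call, against 5.89% elsewhere.

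The X block had the lowest share in this count. Kept calls were at 19 of 36 protein-coding genes on 3L (52.8%, interval 35.5 to 69.6), 7 of 14 on 3R, 12 of 37 on 2L (32.4%, interval 18.0 to 49.8) and 6 of 59 on X (10.2%, interval 3.82 to 20.8). The X interval does not overlap those of 3L and 3R (23.04 to 76.96). It does overlap that of 2L, though the X share was the lower one. At 38 of the 59 X genes the start lay in unique sequence, and all 6 kept calls were among these (15.8%, interval 6.02 to 31.3). Among unique starts this interval overlaps those of 3R (50%, interval 23.04 to 76.96) and 2L (34.4%, interval 18.6 to 53.2). It does not overlap that of 3L (60%, interval 40.6 to 77.3).

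Of 27 well-known pericentric genes that were listed, 23 had a start in the blocks, 18 of these had a call there and 10 (43.5%, interval 23.2 to 65.5) a kept one, against 30.1% of all protein-coding genes of the blocks, whose interval overlaps. The kept ones were lt (rank 1188), cta (4144), which codes for a G protein alpha subunit, RpL5, RpL15, Dbp80, vtd (2223), which codes for the cohesin subunit Rad21, MED21, eIF4B (2935), a translation initiation factor, Myo81F and Parp1 (4340), the poly(ADP-ribose) polymerase. Calls at Set1 (5390), a histone H3 lysine 4 methyltransferase, su(f) (5563), of messenger RNA 3′ end processing, CkIIalpha (5606), a casein kinase subunit, and Snap25 (5649), a SNARE protein, were not kept. AGO3, an Argonaute protein of the piRNA pathway, had a start call at rank 9650, with 5299 in replicate 1 and 20859 in replicate 3, so the replicates were far apart there. Starts of Cht10, a chitinase (10254), and Gfat1, of amino sugar synthesis (14476), had weaker calls, and spok was at rank 28221. No call lay at the starts of nvd, a gene of ecdysone synthesis, of Pzl, of fog or of stnA and stnB, which share a locus.

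A few long genes held many of the members. Summits of 958 members (58.2%) lay between the ends of 122 genes, and 14 genes held at least 20 each. The 8 genes with most members held 352 (21.4%), of which 7 (1.99%, interval 0.803 to 4.05) were kept, close to the 1.83% of all members outside promoters. Myo81F, 1966 kb long, held 58 members with 1 kept, and CG40006, 134 kb long, held 52 with none kept. Dbp80 held 49 with none kept between its ends, its kept call lying upstream. The gene l(3)80Fg held 45, Snap25 41, lovit, a histamine transporter gene, 38, and Pzl, a gene for a Piezo-like channel, 32. The nicotinic receptor gene nAChRalpha4, 80.8 kb long, held 37 members of which 3 were kept, at ranks 2254, 2475 and 2770. Among the 14 genes the numbers per 100 kb of gene ran from 2.95 in Myo81F to 88.6 in CG42748. Per 100 kb of unique sequence, with all members counted, they ran from 8.40 to 90.5 in the same genes.

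**Figure D4:**
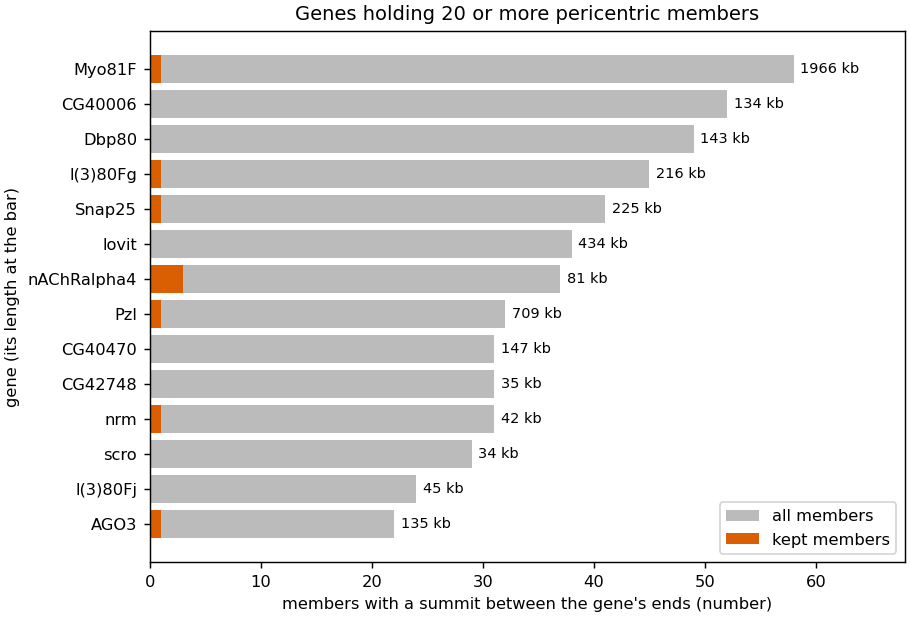
Number of members with a summit between the ends of each gene that holds at least 20 (grey bars), with the kept ones in orange and the gene's length at the bar. The longest gene, Myo81F with 58 members, has 1 kept, and nAChRalpha4 has 3 of 37.

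Members had a match in the single replicates at lower shares than other calls, and kept members at shares close to those of kept calls elsewhere. A call overlapping by at least 50% of the shorter one was found for 1169 members (71.0%) in replicate 1, for 1139 (69.2%) in replicate 3 and for 759 (46.1%) in both. On the rest of the arms these shares were 78.1%, 78.3% and 60.5%. Members also ranked lower, as given above, and the part of rank in these shares was not tested. Of the 74 kept members, 73 matched in replicate 1 and 74 in replicate 3, and 56 (75.7%) matched a call within the top 4402 of both, against 76.8% of all kept calls. That held for 39 of the 47 at promoters and 17 of the 27 others. The pool is made from the same reads as the replicates, so these matches are not independent of it.

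Each replicate's own list, placed by the same rule, gave similar shares. Replicate 1 had 1613 such calls with 81 (5.02%, interval 4.01 to 6.20) in its top 4402, and replicate 3 had 1641 with 72 (4.39%, interval 3.45 to 5.49). At promoters these shares were 27.2% and 25.9%, and outside them 2.42% and 1.84%. The largest gap between the replicates among the kept members was at an intergenic call 37119 bp from CG41128 on 3R, with rank 1289 in replicate 1 and 9181 in replicate 3.

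**Figure D5:**
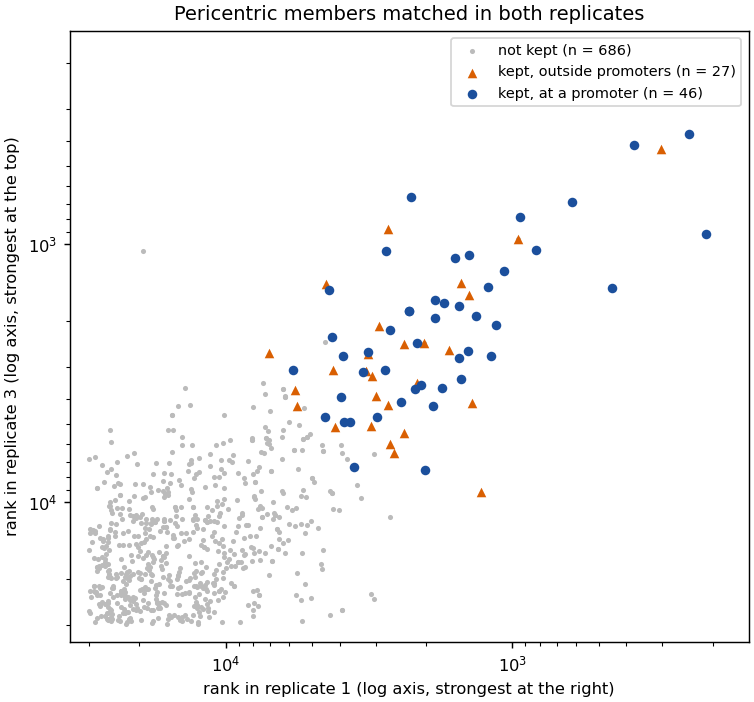
Rank in replicate 1 against rank in replicate 3 (log axes, strongest calls at the upper right) of the 759 members matched in both, by whether they were kept and lay at a promoter. Kept members occupy the corner of high ranks in both, and most members not kept lie at ranks beyond the top 4402.

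Of 7 searched motifs, GGTCACAC and the motif GGTATTT were less common in windows of members than in all windows, with intervals that do not overlap. Both are more common at promoters in the whole pool, and promoter summits made up 10.4% of members against 30.6% of all calls. The part of place in these differences was not tested. They were read on both strands of windows reaching 100 bp to either side of the summit. One was TATCGATA, together with TCGATA, which is contained in it. GGTCACAC and the motif GGTATTT were searched as well. The remaining searches were for GAGAG, for 2 copies in a row of the unit AATAT, a satellite repeat of fly heterochromatin, and for 2 copies in a row of the unit AAGAG, another such satellite. TATCGATA was in 2.31% of member windows and 2.90% of all windows, and TCGATA in 13.2% and 12.4%. GGTCACAC was in 8 member windows (0.486%, interval 0.210 to 0.955) against 2.07% of all (interval 1.91 to 2.23), and at promoters in 1 of 171 (the Clamp window printed above) against 5.2% of all promoter windows. GGTATTT was in 3.40% (interval 2.58 to 4.39) against 5.09% (interval 4.85 to 5.35), and at promoters in 10 of 171 (5.85%) against 7.42%. GAGAG was in 22.04% against 24.0%, the AATAT repeat in 0.668% against 0.683% and the AAGAG repeat in 0.182% against 0.153%. Among kept promoter windows TCGATA was in 16 of 47 (34.0%), against 29.0% of all kept promoter windows, and TATCGATA in 4 (8.51%) against 10.97%. The Rab21, Nubpl and Clamp windows are among the 16.

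The lists on the older dm3 build, which keeps part of this sequence on separate heterochromatic arms, gave a similar share. The 2LHet, 3LHet, 3RHet and XHet arms held 727 pooled calls with 26 kept (3.58%, interval 2.35 to 5.196), against 14.6% of all dm3 calls. No call was left out there for transposable elements, and coordinates were not converted between builds. The strongest of these calls had rank 307, on 3LHet.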

How the data were processed

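ADD1-GFP ChIP-seq peak lists of 2 replicates and of their pool were used. Both peaks and background were called by the authors for each alignment and for the pooled one, against a shared control, and thresholded by IDR, per the file lists deposited with the samples. Aligner and caller: not given in the sources used here. Signal per call was deposited by the authors and served only to rank calls within a list (−log10 q-value, deposited as well, was not used). The summit is the deposited start plus the deposited offset. Read depth is unknown, so no floor can be given.

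Genes, starts and transposable elements came from the Ensembl release 115 annotation and sequence from RefSeq Release 6. Summits were placed as promoter (within 500 bp of a start), exon, intron or intergenic. Uniqueness was read from 32-base words over the whole assembly. No test was run, since regions are not replicates and there is 1 group. Shares have exact intervals (scipy 1.17.1, with numpy 2.4.6 and pandas 2.3.3 in Python 3.11.15). Placement and intervals were checked on simulated positions. Named genes are those at the 20 strongest members, at the 5 strongest kept members of each block, the genes with most members and 27 listed residents, of which 2 were found by a synonym. Further kept promoter genes were named after their values were seen, as the text states, and so was Tim23. The members, gene list, motifs and boundaries were chosen with earlier results of these data known. Splits by GC content, and by place within unique sequence, were added after the data were seen.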

Additional observations from a re-analysis of the deposited data

Results flagged for a closer look

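The pooled dm3 list held 104 calls on scaffolds not placed on a chromosome, of which 2 were kept (1.92%, interval 0.234 to 6.77). They are singled out because no comparison above uses them and their number is above the limit of 3 that a count of 0 allows. The replicate lists had 89 and 91 such calls, with 2 each in their top 4374.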

How the results depend on the processing

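Of 145 alternative values for 13 results, 116 lay within the interval of the reported value and 29 outside it. Some of the 116 could not have moved, so the count is no measure of robustness. The promoter width does not enter the kept shares of all members, by block or by distance, or the median rank. The stronger part of the kept list does not enter the promoter share or the median rank. The median rank has no counting interval, and 13376 without the weakest 10000 calls, against 19133, was counted as within. Leaving out the weakest 10000 calls gave kept shares of 8.48% for all members (22.01% of all pooled calls), 37.0% at promoters (35.4%), 3.62% outside them (14.1%), 8.70% within and 8% beyond 1.5 Mb, 7.66% on 2L, 7.52% on 3L and 13.9% on 3R, with a promoter share of 14.5%. With only the stronger 2201 kept calls they were 1.82% for all members (7.34% of the pool), 13.5% at promoters (15.04%), 0.474% outside them (3.93%), 1.86% within and 1.75% beyond 1.5 Mb, 1.82% on 2L, 1.83% on 3L, 2.30% on 3R and 0.800% on X. These settings change the denominator or the list itself, and the pool moves with them. Promoters of 200 bp gave a promoter share of 6.74% with 40.5% kept (33.5% of the pool), and promoters of 1000 bp gave 16.8% with 17.7% kept (24.1%). Taking 1 call per run of overlapping calls gave 34.8% kept at promoters (34.3%). The promoter share was 8.09% with boundaries moved 0.5 Mb towards the centromere, 15.5% with boundaries moved away from it and 15.1% in unique windows. Boundaries moved away gave 6.39% kept within 1.5 Mb. Matches by any overlap rose to 76.5% in replicate 1 and 74.9% in replicate 3. The cause of these shifts was not tested.

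Each replicate's own list gave 4.39% to 5.02% for all members, 10.5% to 10.6% as promoter share, 25.9% to 27.2% at promoters, 1.84% to 2.42% outside them, 4.802% to 5.298% within and 3.63% to 4.496% beyond 1.5 Mb. By block it gave 4.77% to 5.85% on 2L, 4.24% to 4.46% on 3L, 4.90% to 5.14% on 3R and 3.05% to 5.56% on X, the lower X value being 1.57 times below the reported one. The median rank was 18385 to 19181. In every setting listed the kept share of all members stayed below that of all calls. No paired analysis was possible because the series holds a single group. Limits are the unknown read depth, the unstated treatment of reads from repeats, the unanalysed control, and intervals that leave out variation between embryo collections.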
